A study of Mus musculus with 8 samples.

Results

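The genes described here are 52 genes of DNA replication and the S phase of the cell cycle, chosen by name, and 51 of them were measured among 18193 genes of the array. Chaf1a had no probe set annotated with 1 gene only and was not analysed here. By role they fall into the replicative helicase and its loading (15 genes), polymerases and primase (8), clamp, clamp loader, single-strand binding and Okazaki fragment processing (10), nucleotide supply (5), G1/S regulators (5), chromatin and histone supply (3 measured) and fork protection and repair (5). RNA of C57BL/6 mouse CD4 T cells, sorted as naive cells and kept for 48 h on antibodies to CD3 and CD28 in a culture that drives Th17 differentiation, was hybridised to 8 Affymetrix Mouse Genome 430 2.0 arrays. There were 4 groups of 2 arrays: RORγt-deficient cells (KO) in digoxin, KO cells in DMSO, wildtype cells (WT) in digoxin and WT cells in DMSO. RORγt is a nuclear receptor required for the Th17 fate, and digoxin is a cardiac glycoside, known as a blocker of the sodium pump. Neither the digoxin dose nor the type of RORγt allele is given in the sources used here. By their titles the arrays are biological replicates, but no animals or cultures are named, and p-values therefore describe the spread between these arrays, part of which may be technical.

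DNA replication is prepared in G1, when the origin recognition complex, Cdc6 and Cdt1 load the Mcm2 to Mcm7 ring onto DNA. At the start of S phase, Cdc45 and the GINS complex turn this ring into an active helicase, and polymerases alpha, delta and epsilon copy the strands behind it. Transcription of most of these genes is driven by E2F factors once retinoblastoma proteins have been phosphorylated by cyclin and kinase pairs, and a naive T cell enters this programme after activation. These roles are background and not results of these data.

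All values below are on the log2 scale and are relative to the mean of the WT DMSO arrays, which therefore lies at 0 for every gene. No absolute level of a gene is left in the deposited values. Only the range of the lowest array value before this centring could be recovered from the binary precision of the numbers. It was 8 or above for 19 of the 51 genes, between 4 and 8 for 30, and between 2 and 4 for Mcm10 and Tyms. Over all 18193 genes, the array medians lay between -0.01 and 0.03. RORγt itself was not analysed here, and the genotype labels were therefore not checked by it. The T cell genes Cd3e, Cd3d, Cd3g, Cd4, Cd2 and Cd28 all had a lowest value of 8 or above before centring, and no such gene was called in any comparison. A called gene is one with an adjusted p under 0.05 in limma's moderated test, Benjamini-Hochberg adjusted over all 18193 genes. Where an adjusted p is given for another probe set of a gene, it comes from a separate limma fit. That fit was adjusted over all 34945 probe sets with 1 gene symbol, so its adjusted p-values are not on the same scale. Values after ± are limma standard errors with 2 arrays a group.

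In DMSO, replication genes were lower in KO than in WT cells in 46 of 51 cases, with a median difference of -0.38 (23.4% lower), beside 0.00 over all genes. The quartiles were -0.55 and -0.25, and the range ran from -1.02 to 0.16. The 5 called genes all fell: Cdc45, Pola1, Pold1, Pole and Lig1. Over all genes 0.77% were called lower in this comparison. At an unadjusted p under 0.05, 33 of the 51 were lower and 0 higher, beside 6.08% of all genes that were lower. Both KO DMSO arrays lay below both WT DMSO arrays for 44 of the 51, beside 21.7% of all genes. Fewer cells that express these genes and less RNA per cell cannot be told apart in RNA of bulk cultures. Leaving out any 1 of the 4 DMSO arrays ended the calls named above, and fewer of all genes were called too. The median of the 51 stayed between -0.43 and -0.32.

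**Figure D1:**
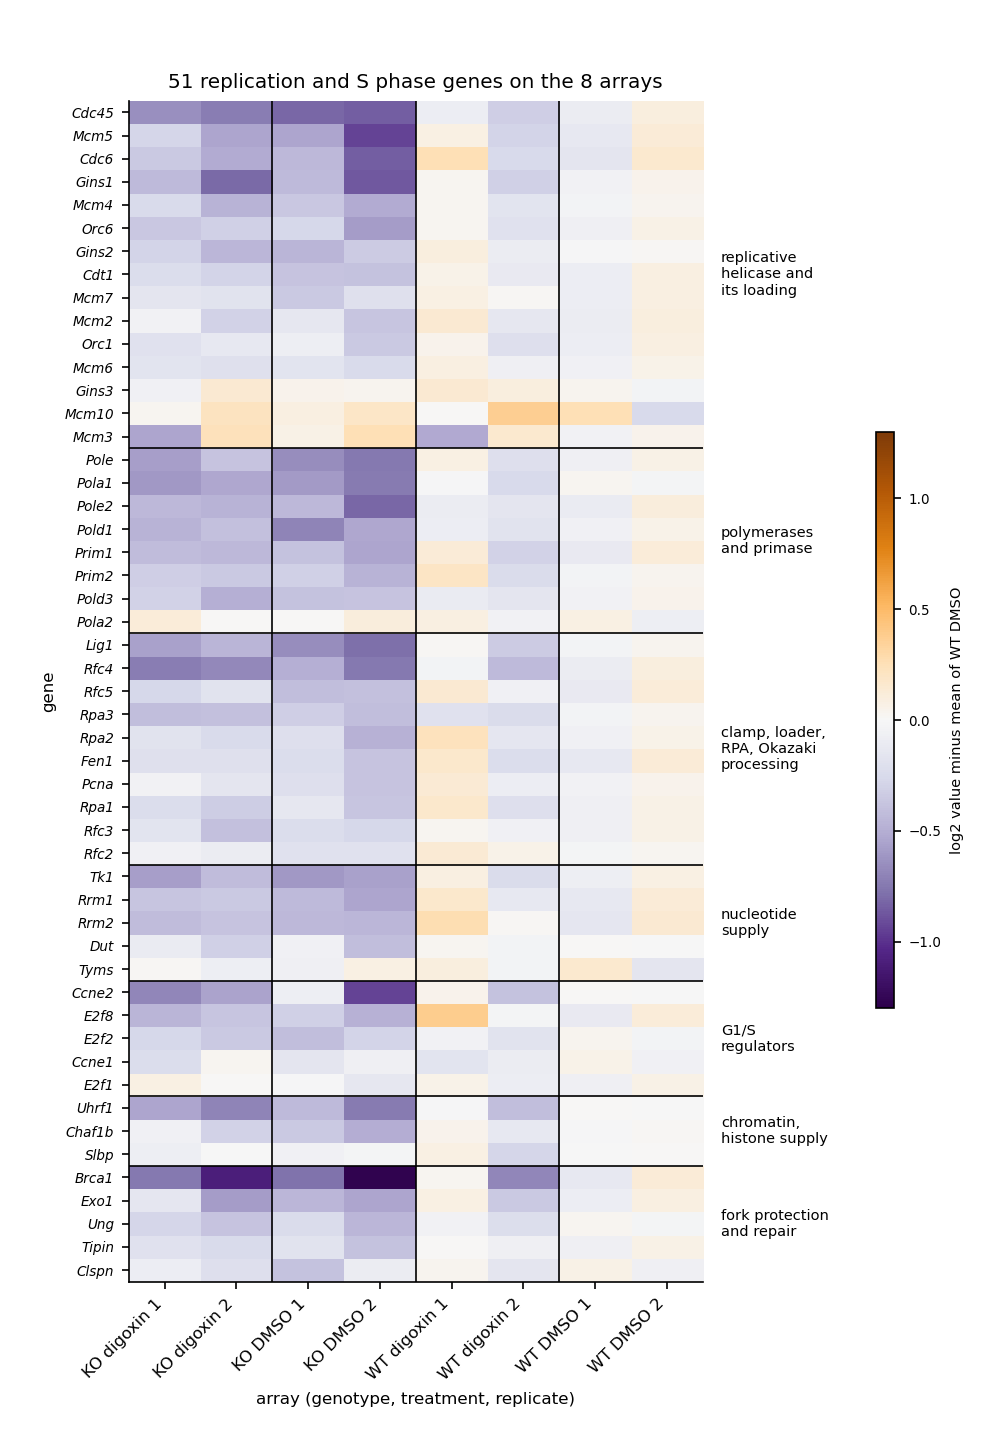
Values of the 51 measured genes (rows, grouped by role and ordered within a role by KO DMSO minus WT DMSO) on the 8 arrays (columns, genotype, treatment and replicate). Colour gives the log2 value minus the mean of the WT DMSO arrays, with purple below 0. The 4 KO arrays have medians from -0.41 to -0.27, and the WT digoxin arrays have medians of 0.05 and -0.16.

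Among the helicase genes, Cdc45, the factor that joins the Mcm ring and GINS in the moving helicase, had the smallest p. Its values were -0.65 and -0.72 on the KO digoxin arrays, -0.82 and -0.85 on the KO DMSO arrays, -0.08 and -0.32 on the WT digoxin arrays, and -0.09 and 0.09 on the WT DMSO arrays. All 4 KO arrays lay below all 4 WT arrays. The difference in DMSO was -0.83 ± 0.12, a 1.78-fold lower value in KO cells (limma adjusted p = 0.0124). The other probe set of Cdc45 gave -0.13 (adjusted p = 0.766), so the probe sets of this gene disagree in size.

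No other helicase gene was called in DMSO. Of the ring subunits, Mcm5 had -0.74 ± 0.18 (adjusted p = 0.105), Mcm4 -0.44, Mcm7 -0.28, Mcm2 -0.25 and Mcm6 -0.21. Of the GINS subunits, Gins1 had -0.65 and Gins2 -0.41, and of the loading factors Cdc6 had -0.65, Orc6 -0.43, Cdt1 -0.38 and Orc1 -0.21. The other probe set of Gins1 stood at -0.18 and that of Gins2 at -0.44, and the other 2 of Cdt1 stood at -0.41 and 0.13. On the probe sets used, the differences above 0 were those of Mcm3 at 0.16, Mcm10, which helps to start the helicase, at 0.14, and Gins3 at 0.04. Their other probe sets lay below 0. For Mcm3 the other 4 probe sets ran from -0.59 to -0.45, for Mcm10 the other 2 stood at -0.72 (adjusted p = 0.0526) and -0.11, and for Gins3 the other stood at -0.35.

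The polymerase and primase genes had the lowest median of the 7 role groups in DMSO, -0.54 over 8 genes, with 3 called. Pola1, the catalytic subunit of polymerase alpha, which starts each new strand together with primase, had -0.61 and -0.53 in KO digoxin, -0.60 and -0.73 in KO DMSO, -0.01 and -0.26 in WT digoxin, and 0.03 and -0.03 in WT DMSO. The KO arrays of both treatments were again below every WT array. In DMSO the difference was -0.66 ± 0.12, 1.59-fold lower (limma adjusted p = 0.0297). The other probe set of Pola1, with a lowest level between 2 and 4, gave 0.10 (adjusted p = 0.879).

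Pold1, the catalytic subunit of polymerase delta, the main lagging strand enzyme, had -0.47 and -0.40 in KO digoxin, -0.70 and -0.54 in KO DMSO, -0.09 and -0.18 in WT digoxin, and -0.06 and 0.06 in WT DMSO. Here the 4 groups did not overlap at all, with KO DMSO lowest. The difference in DMSO was -0.62 ± 0.11, 1.53-fold lower (limma adjusted p = 0.0297), and its other probe set also had -0.62 (adjusted p = 0.137). Pole, the catalytic subunit of polymerase epsilon, the main leading strand enzyme, had -0.58 and -0.38 in KO digoxin, -0.66 and -0.75 in KO DMSO, 0.08 and -0.21 in WT digoxin, and -0.07 and 0.07 in WT DMSO. The KO DMSO arrays were the lowest, and the difference in DMSO was -0.70 ± 0.13, 1.63-fold lower (limma adjusted p = 0.0398). Pole2, its accessory subunit, was at -0.63 ± 0.14 in that comparison and was not called (adjusted p = 0.0782). The other probe set of Pole2 stood at -0.36. Both primase subunits were lower without a call, Prim1 at -0.47 and Prim2 at -0.39, as was Pold3 at -0.38. Pola2, which regulates polymerase alpha, was at 0.05, with other probe sets at -0.42 and -0.15.

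In the group of the clamp and of Okazaki fragment processing, all 10 genes were lower in KO DMSO arrays, with both arrays below both WT DMSO arrays for each, and a median of -0.33. Lig1, the ligase that seals Okazaki fragments, had -0.57 and -0.46 in KO digoxin, -0.66 and -0.79 in KO DMSO, 0.01 and -0.34 in WT digoxin, and -0.04 and 0.04 in WT DMSO. It has 1 probe set, and the difference in DMSO was -0.72 ± 0.13, 1.65-fold lower (limma adjusted p = 0.0368). The lower WT digoxin array still lay above every KO array. The clamp loader subunits had -0.62 for Rfc4, -0.41 for Rfc5, -0.25 for Rfc3 and -0.19 for Rfc2. Pcna, the sliding clamp itself, was at -0.29, Fen1, the flap nuclease, at -0.31, and the single-strand binding genes Rpa3, Rpa2 and Rpa1 at -0.36, -0.35 and -0.25. None of these 9 was called. The other probe set of Fen1 stood at -0.11, that of Rpa2 at -0.16 and that of Rfc4 at -0.71.

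In nucleotide supply, Tk1, thymidine kinase of the cytosol, had -0.57 and -0.43 in KO digoxin, -0.60 and -0.57 in KO DMSO, 0.09 and -0.24 in WT digoxin, and -0.07 and 0.07 in WT DMSO. Its KO arrays lay below all WT arrays, and the difference in DMSO of -0.58 ± 0.13 was not called (limma adjusted p = 0.0890). The ribonucleotide reductase subunits Rrm1 and Rrm2 were at -0.49 and -0.45, and Dut, which removes dUTP, at -0.23. Tyms, thymidylate synthase, was at 0.00 on a probe set of the lowest signal range, and its other 3 probe sets ran from -0.23 to -0.03.

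On the probe sets used, the G1/S regulators differed among themselves. E2f2, an activator of the E2F family, had the smallest p of the 5 genes in DMSO, with -0.27 and -0.35 in KO digoxin, -0.41 and -0.29 in KO DMSO, -0.05 and -0.18 in WT digoxin, and 0.03 and -0.03 in WT DMSO. Its KO arrays were the lowest, and the difference in DMSO was -0.35 ± 0.11 (limma adjusted p = 0.237). The atypical repressor E2f8 was at -0.40 and cyclin E2, Ccne2, at -0.51. The activator E2f1 and cyclin E1, Ccne1, were at -0.08 and -0.11. This order depended on the probe set. The other probe set of E2f8 stood at -0.005, that of Ccne1 at -0.25 and that of E2f2 at -0.35, and the other 2 of E2f1 at -0.04 and 0.18. Ccne2 was also the least repeatable of the group, with -0.07 and -0.94 on the KO DMSO arrays.

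Uhrf1, which brings maintenance DNA methylation to newly copied DNA, had -0.54 and -0.69 in KO digoxin, -0.44 and -0.73 in KO DMSO, -0.01 and -0.41 in WT digoxin, and 0.00 and 0.00 in WT DMSO. The lower WT digoxin array came close to the higher of the KO DMSO arrays only. The difference in DMSO was -0.59 ± 0.15 (limma adjusted p = 0.150). Chaf1b, a subunit of the histone chaperone of replication, was at -0.42, with its other probe set at -0.05. Slbp, which binds the stem-loop of histone mRNA, was at -0.04. Brca1, which protects stalled forks and directs repair, had the largest difference of all 51 genes and also a wide spread, with -0.75 and -1.09 in KO digoxin, -0.78 and -1.27 in KO DMSO, 0.02 and -0.69 in WT digoxin, and -0.12 and 0.12 in WT DMSO. With a standard error of 0.24, the difference of -1.02 in DMSO was not called (limma adjusted p = 0.0989), and its other 3 probe sets ran from -0.58 to -0.03. The nuclease Exo1 was at -0.50, Ung, which removes uracil from DNA, at -0.34, and the checkpoint mediators Tipin and Clspn at -0.29 and -0.25. The other 2 probe sets of Exo1 stood at -0.64 and 0.10.

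**Figure D2:**
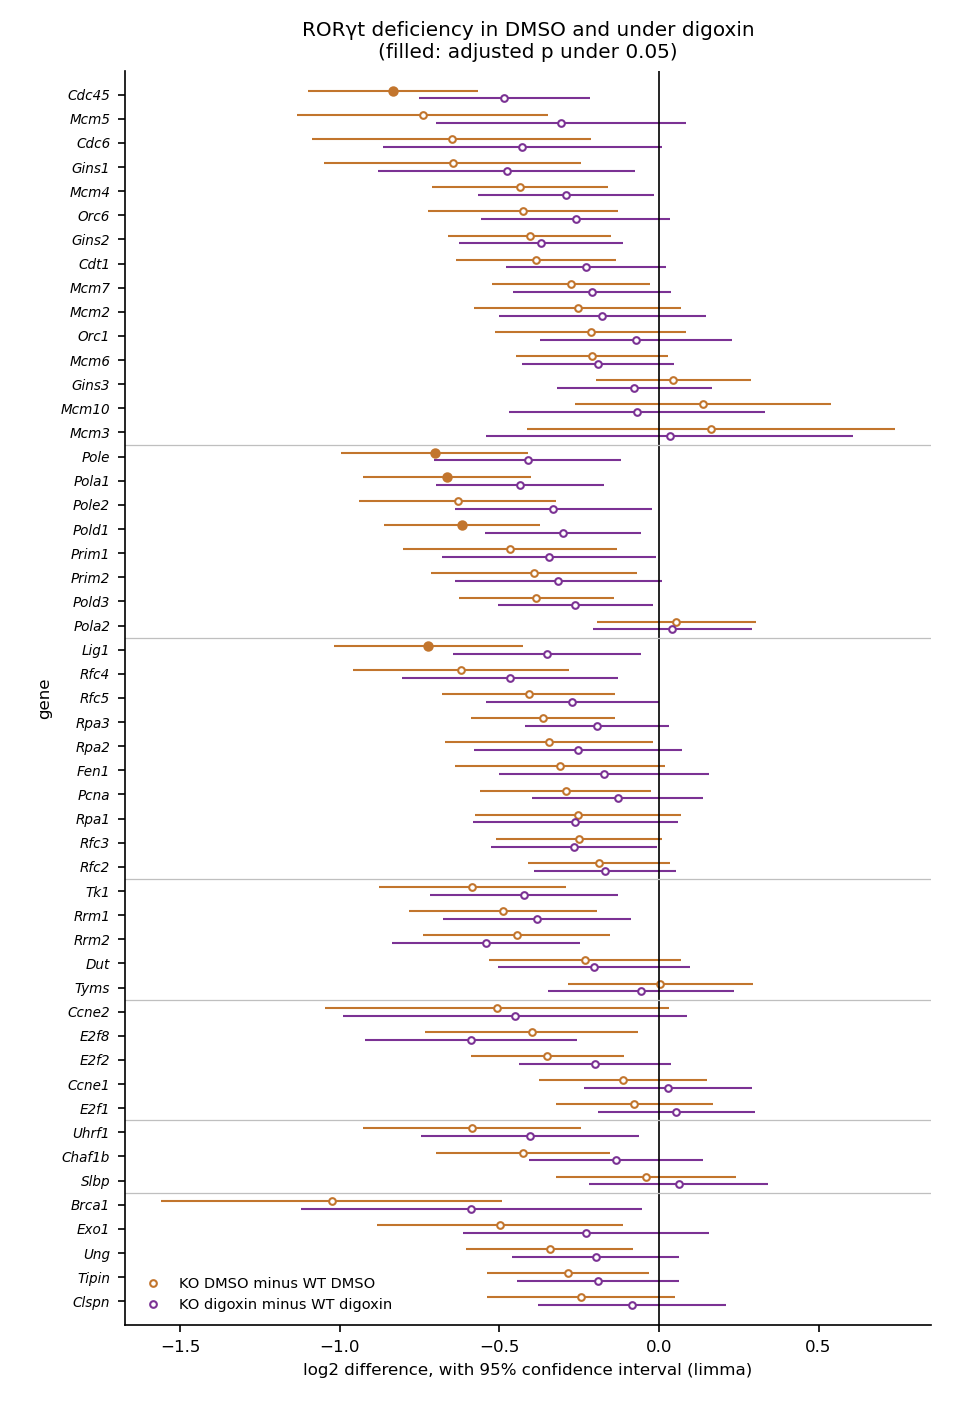
Log2 differences of the 51 genes between KO and WT cells in DMSO (brown) and under digoxin (purple), with 95% confidence intervals from limma on the x axis and genes by role on the y axis. Filled points are called genes. In each comparison 46 of the 51 points lie below 0, and the 5 filled points are those of Cdc45, Pole, Pola1, Pold1 and Lig1 in DMSO.

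Under digoxin, replication genes were again lower in KO than in WT cells in 46 of 51 cases, with a median of -0.26, beside 0.01 over all genes. None was called, and over all genes 0.0055% were called lower, which is 1 gene. At an unadjusted p under 0.05, 20 of the 51 were lower, beside 2.73% of all genes. Both KO digoxin arrays lay below both WT digoxin arrays for 35 of the 51, beside 13.6% of all genes. The lowest differences were those of E2f8 at -0.59, Brca1 at -0.59, Rrm2 at -0.54, Cdc45 at -0.48 and Gins1 at -0.48. The median rested on which WT digoxin array was used: it was -0.17 without WT digoxin replicate 1 and -0.36 without WT digoxin replicate 2.

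The comparisons of genotype in DMSO and under digoxin share no arrays. Across the 51 genes their differences had a Pearson correlation of 0.838 and a Spearman correlation of 0.865, beside 0.485 and 0.371 across all 18193 genes. This is a description across genes, which share the probe sets and the normalisation of the arrays and are not independent replicates. Both KO means lay below both WT means for 43 of the 51 genes. KO DMSO had the lowest of the 4 means for 36 genes and WT DMSO the highest for 34. These orders of the means were not counted over all genes, so no background share stands beside them.

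With both treatments averaged, a comparison chosen after the values had been seen, KO cells were lower for 47 of the 51 genes, with a median of -0.31 (19.1% lower), beside 0.01 over all genes. The 9 called genes were all lower, where 1.04% of all genes were called lower. They were Cdc45, Pola1, Pold1, Pole and Lig1, called in DMSO, and Pole2, Rfc4, Rrm2 and Tk1. At an unadjusted p under 0.05, 40 of the 51 were lower and 0 higher, beside 6.86% of all genes that were lower. All 4 KO arrays lay below all 4 WT arrays for 33 of the 51, beside 4.2% of all genes.

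Cdc45 had the smallest p of these 9, at -0.66 ± 0.08 (limma adjusted p = 0.00502). It was called in each of the 8 fits that left out 1 array, with adjusted p from 0.00514 to 0.0396, but not after quantile normalisation, where it was at -0.49 (limma adjusted p = 0.33). That normalisation was applied to the centred values, on which the WT DMSO arrays spread less than the others, and gives all arrays the same distribution. Rrm2, the small subunit of ribonucleotide reductase, had -0.42 and -0.38 in KO digoxin, -0.44 and -0.45 in KO DMSO, 0.27 and 0.01 in WT digoxin, and -0.15 and 0.15 in WT DMSO. The 4 KO values lay close together and below all WT values, and the averaged difference was -0.49 ± 0.09 (limma adjusted p = 0.0319).

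Rfc4, a clamp loader subunit, had -0.73 and -0.67 in KO digoxin, -0.49 and -0.75 in KO DMSO, -0.03 and -0.43 in WT digoxin, and -0.10 and 0.10 in WT DMSO. The lower WT digoxin array came close to the higher KO DMSO array. The averaged difference was -0.54 ± 0.11 (limma adjusted p = 0.0406). Pole2 had -0.44 and -0.47 in KO digoxin, -0.44 and -0.82 in KO DMSO, -0.10 and -0.16 in WT digoxin, and -0.10 and 0.10 in WT DMSO. Its averaged difference was -0.48 ± 0.10 (limma adjusted p = 0.0452), and that of Tk1 was -0.50 ± 0.09 (limma adjusted p = 0.0291). The number of called genes rested on single arrays. It fell without most of them and rose without WT digoxin replicate 2. Over all genes, fewer were called without any 1 of the arrays.

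**Figure D3:**
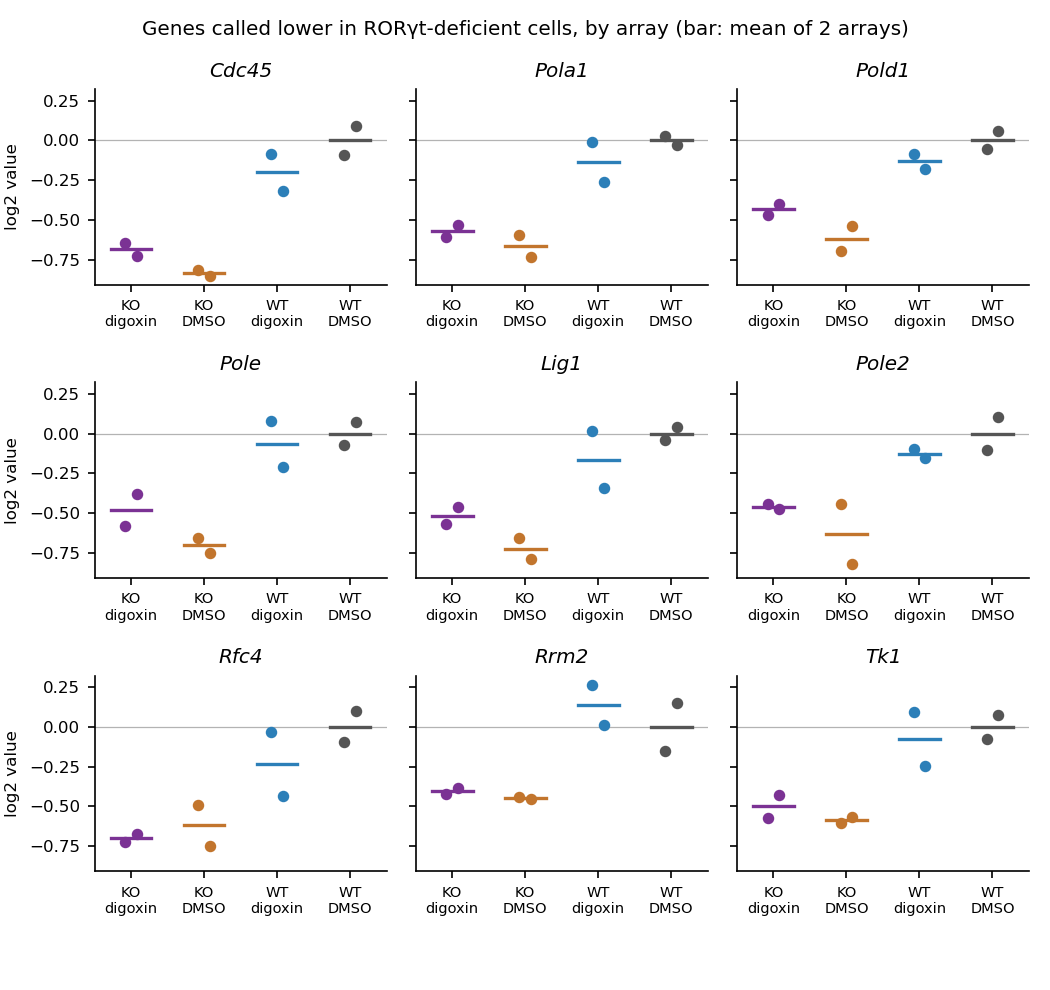
Log2 values (y axis, relative to the WT DMSO mean) of the 9 genes called in any comparison, by group (x axis). Points are the 2 arrays of a group and bars their mean. In every panel the 4 KO points lie below the 4 WT points, and in all 9 the WT digoxin points lie closer to the WT DMSO mean than the KO means do.

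Digoxin gave no called change among these genes. In WT cells the median of digoxin minus DMSO was -0.06, beside 0.01 over all genes, and 36 of the 51 genes were lower and 15 higher. None was called, beside 0.121% of all genes in either direction, and 0 of the 51 had an unadjusted p under 0.05, beside 6.99% of all genes. Both WT digoxin arrays lay below both WT DMSO arrays for 7 genes and above them for 2, beside 18.1% and 19.6% of all genes. The differences ran from -0.33 for Brca1 to 0.19 for Mcm10.

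The 2 WT digoxin arrays did not place these genes alike. Replicate 2 was below replicate 1 for 48 of the 51 genes, with a median gap of -0.22, while the median gap over all genes was 0.01. The corresponding counts were 32 in KO digoxin, 37 in KO DMSO and 12 in WT DMSO. The median effect of digoxin in WT cells was -0.16 without WT digoxin replicate 1 and 0.05 without WT digoxin replicate 2, so its direction rested on 1 array. Summed over 3 B cell genes, the log2 values were 1.10 on WT digoxin replicate 2 and 0.29 on replicate 1, and over 5 myeloid genes 0.80 and 0.21. Their part in the gap was not tested.

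In KO cells the median of digoxin minus DMSO was 0.06, beside 0.02 over all genes, with 40 of the 51 genes higher and 11 lower. Again none was called, beside 0.0055% of all genes in either direction, and 0 had an unadjusted p under 0.05, beside 3.51% of all genes. Both KO digoxin arrays lay above both KO DMSO arrays for 15 genes and below them for 0, beside 17.8% and 10.6% of all genes. The highest values were those of Mcm5 at 0.33, Chaf1b at 0.25, Pole at 0.22 and Cdc6 at 0.22, and the lowest was that of Mcm3 at -0.31. The effects of digoxin in KO and in WT cells, which share no arrays, had a Pearson correlation of 0.0887 across the 51 genes and of 0.276 across all genes.

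Averaged over both genotypes, which was also a comparison chosen after the values had been seen, the median effect of digoxin was 0.02, equal to that over all genes when rounded. None of the 51 genes was called, beside 0.104% of all genes, 0 had an unadjusted p under 0.05, beside 7.49%, and for 0 genes did the digoxin and DMSO arrays lie fully apart, beside 1.25% of all genes lower and 2% higher. The standard error of an averaged difference had a median of 0.09 over the 51 genes.

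The difference between the digoxin effects, KO minus WT, had a median of 0.14 over the 51 genes, beside 0.01 over all genes, and lay above 0 for 42 and below for 9. It was called for none of the 51 and for 0% of all genes, and 0 of the 51 had an unadjusted p under 0.05, beside 3.09% of all genes. The values ran from -0.21 for Mcm10 to 0.44 for Brca1. For Lig1 the difference was 0.37, with a 95% interval from -0.05 to 0.79. Both digoxin arrays lay above both DMSO arrays in KO cells and below them in WT cells for 1 of the 51, Pold1, beside 2.01% of all genes. The median was 0.25 without WT digoxin replicate 1 and 0.02 without WT digoxin replicate 2.

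KO cells without digoxin were also set directly against WT cells with it. The KO DMSO arrays were lower for 47 of the 51 genes, with a median of -0.35, beside -0.01 over all genes. No gene of the 51 was called, and 0% of all genes were called lower. At an unadjusted p under 0.05, 30 of the 51 were lower, beside 3.55% of all genes, and for 40 both KO DMSO arrays lay below both WT digoxin arrays, beside 17% of all genes. Brca1 at -0.69, Cdc6 at -0.65, Mcm5 at -0.64 and Pole at -0.64 were lowest, and Mcm3 at 0.35 was highest. The median was -0.21 without WT digoxin replicate 1 and -0.46 without WT digoxin replicate 2.

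KO cells with digoxin against WT cells in DMSO gave a median of -0.33, beside 0.03 over all genes, with 47 of the 51 lower. Cdc45 at -0.69 ± 0.12 (limma adjusted p = 0.0230) and Pola1 at -0.57 ± 0.12 (limma adjusted p = 0.0480) were called, beside 1.05% of all genes called lower. At an unadjusted p under 0.05, 27 were lower, beside 7.53% of all genes, and for 42 the groups lay fully apart, beside 21.3% of all genes. Leaving out any 1 of the 4 arrays compared ended both calls, and fewer of all genes were called too. This comparison shares the WT DMSO arrays with that of genotype in DMSO.

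**Figure D4:**
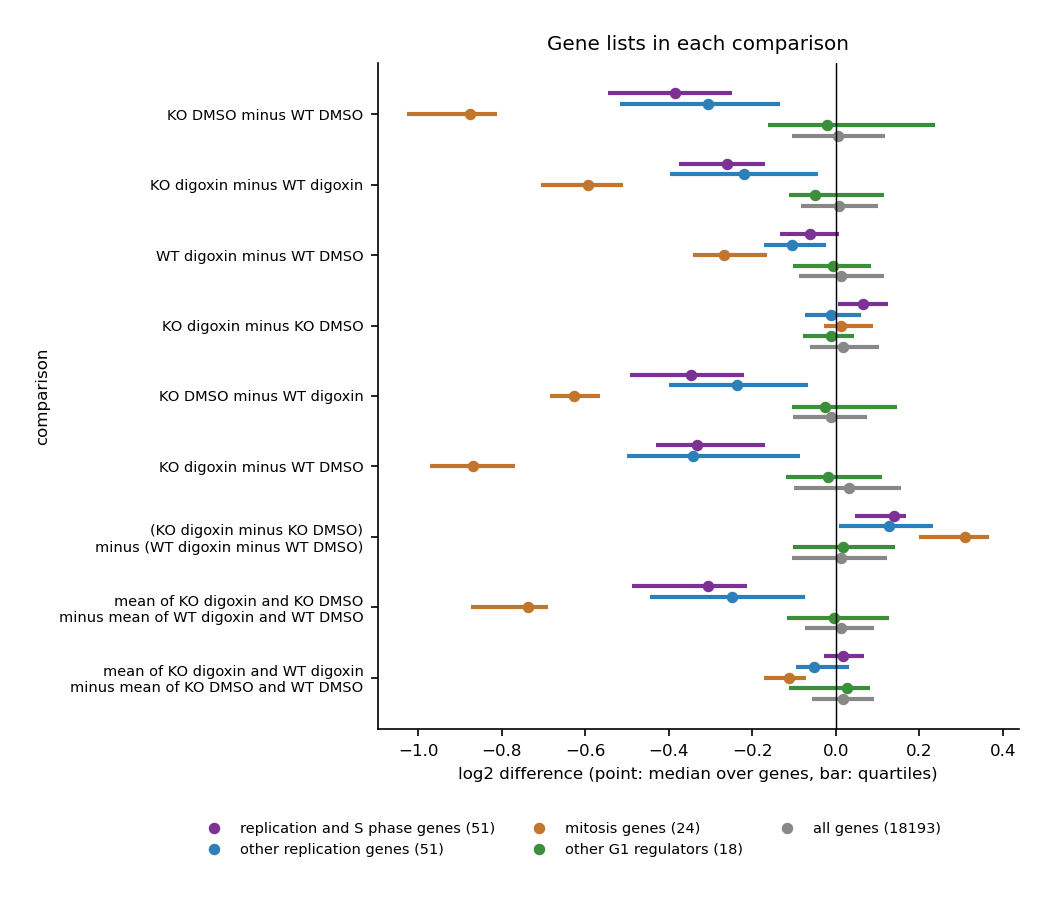
Medians (points) and quartiles (bars) of log2 differences over the genes of 5 lists, for each comparison down the page. The 51 replication and S phase genes have medians from -0.38 to -0.26 in the comparisons of KO with WT cells, between those of mitosis genes and those of all genes.

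Other genes of the pathway were mostly lower in KO cells as well. Of 51 measured further replication genes, 45 were lower in DMSO with a median of -0.31, and 7 were called lower, beside 0.77% of all genes. Among the called were Ccna2, cyclin A2 (-0.88 ± 0.14, limma adjusted p = 0.0154), Hells, a chromatin remodeller (-0.87), and Blm, a helicase of repair (-0.72). So were E2f7, an atypical E2F repressor (-0.67), Atr, the replication stress kinase (-0.65), and Timeless, a partner of Tipin (-0.60). With both treatments averaged 9 were called lower, beside 1.04% of all genes. They were these 7 with the kinase Cdc7 (-0.51) and the histone chaperone Asf1b (-0.52). In KO digoxin against WT DMSO, 5 were called lower, beside 1.05% of all genes: Ccna2 (-0.86), Hells (-0.995), Blm (-0.68), Atr (-0.69) and Dbf4 (-0.64), which activates Cdc7.

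Regulators that act before S phase, a list that mixes drivers and inhibitors of the cycle, lay on both sides of 0. The 18 measured G1 regulators that are not among the 51 genes had a median of -0.02 in DMSO, with 9 below and 9 above 0 and none called. The smallest p-values there were those of Cdkn2c, an inhibitor of Cdk4 and Cdk6 (-0.36 ± 0.11, limma adjusted p = 0.244), Cdk6 itself (0.33), Rb1, the retinoblastoma protein (-0.32), and Cdkn1a, the p21 inhibitor (0.30). Cdkn1a rose with both treatments averaged (0.37 ± 0.08, limma adjusted p = 0.0488), and Rb1 fell in KO digoxin against WT DMSO (-0.55 ± 0.11, limma adjusted p = 0.0495).

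Mitosis genes act after S phase. Their median was -0.88 over 24 measured genes in DMSO and -0.59 under digoxin, and 21 were called lower in DMSO, beside 0.77% of all genes. The 4 with the smallest p were Cenpe (-1.15), Cenpf (-1.12), Ccnb2 (-1.05) and Bub1 (-1.18). The other 17 were Mki67, Aurka, Bub1b, Plk1, Cdk1, Cdc20, Kif11, Kif20a, Tpx2, Nusap1, Birc5, Ube2c, Nek2, Prc1, Dlgap5, Hmmr and Ect2. With both treatments averaged Aurkb was called as well, which made 22, and in KO digoxin against WT DMSO 20 were called, all of the 21 but Dlgap5. By array, the median of the mitosis genes was -0.87 and -0.83 in KO digoxin, -0.88 and -0.88 in KO DMSO, -0.18 and -0.34 in WT digoxin, and -0.12 and 0.12 in WT DMSO, while that of the 51 replication genes was -0.27 and -0.35, -0.35 and -0.41, 0.05 and -0.16, and -0.05 and 0.05 in the same order. Whether the lists differ was not tested.

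Markers of other cell types were set beside these differences. The T cell genes summed to 1.66 and 1.26 in KO digoxin, 1.37 and 1.35 in KO DMSO, 1.04 and 1.02 in WT digoxin, and -0.31 and 0.31 in WT DMSO, with all 6 of 6 above 0 in KO DMSO against WT DMSO (median 0.21). The 2 CD8 genes summed to 0.42 and 0.14 in KO digoxin, 0.48 and 0.42 in KO DMSO, 0.10 and 0.13 in WT digoxin, and -0.05 and 0.05 in WT DMSO. For B cells 3 of 4 listed genes were measured, for myeloid cells 5 of 5, for NK and innate lymphoid cells 2 of 3 and for erythroid cells 2 of 3. None was called in any comparison. The B cell genes summed to 1.01 and 0.77 in KO digoxin, 0.19 and 0.51 in KO DMSO, 0.29 and 1.10 in WT digoxin, and 0.41 and -0.41 in WT DMSO. The myeloid genes summed to 0.28 and 1.22 in KO digoxin, -0.39 and 0.32 in KO DMSO, 0.21 and 0.80 in WT digoxin, and -0.04 and 0.04 in WT DMSO. Over the NK and innate lymphoid genes the sums ran from 0.13 to 0.37 on the KO arrays and from -0.08 to 0.80 on the WT arrays, and over the erythroid genes from 0.06 to 0.43 on the KO arrays and from -0.34 to 0.56 on the WT arrays. On each of these 4 lists the highest WT sum was that of WT digoxin replicate 2. Ncr1, Eomes, Ms4a1, Itgam, Hba-a1 and Alas2 had their lowest value in the range from 2 to 4 before centring, the lowest found. The part of these markers in the differences was not tested.

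Over the 113 probe sets of the 51 genes, 104 were lower in KO DMSO than in WT DMSO arrays, with a median of -0.35. Every probe set was below 0 for 42 of the 51 genes, and at least 1 was for each of the 51. Set by signal, the differences were as follows. Probe sets whose lowest level was 8 or above were below 0 in 42 of 42 cases with a median of -0.40, those between 4 and 8 in 55 of 59 with a median of -0.35, and those between 2 and 4 in 7 of 12 with a median of -0.03. Of the 40 genes with several probe sets, 6 had another one that differed from that used by more than 1.5-fold: Cdc45, Mcm3, Mcm10, Pola1, Brca1 and Exo1. Clspn, at -0.25 on the probe set used, had -0.71 on its other (adjusted p = 0.0956).

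**Figure D5:**
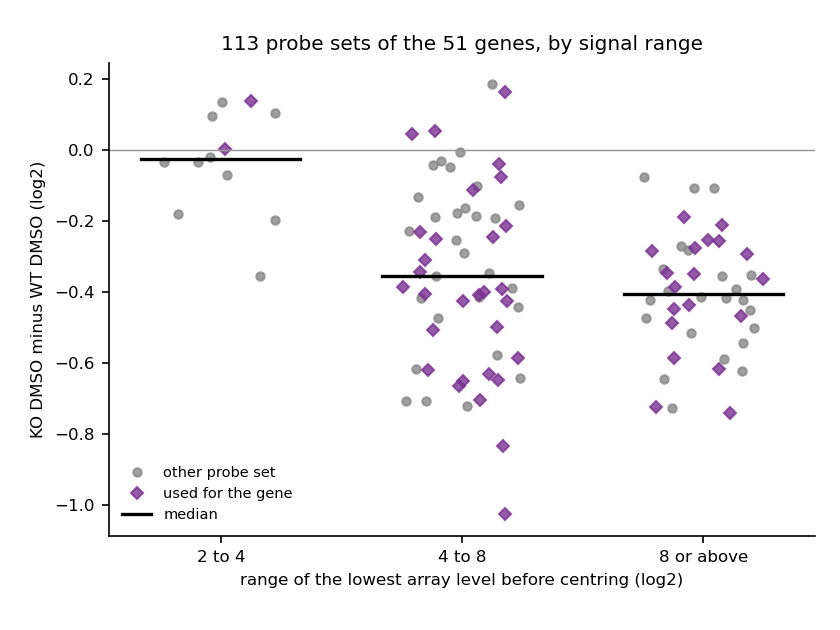
KO DMSO minus WT DMSO (y axis, log2) of the 113 probe sets of the 51 genes, by the range of their lowest array level before centring (x axis, log2). Diamonds are the probe sets used for a gene, circles the others, and black bars medians, which are -0.03, -0.35 and -0.40 from the lowest range to the highest.

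The promoters of these genes were read for words of the E2F site because that factor family is the known driver of the group. RefSeq windows of 300 bases, from 250 before to 50 after a gene's start (GRCm38.p6), existed for 42 of the 51 genes and numbered 48. The words TTTCCCGC, TTTCGCGC, TTTGCCGC and TTTGGCGC, on either strand, stood in 17 of the 48 windows (35.4%), each of another gene, beside 2.26% of all 32851 windows and 4.35% of 23 windows of mitosis genes. Words can share bases, as they do in the window of Mcm5. The median GC content was 60.7% in the windows of the 51 genes, 58.7% in those of mitosis genes and 52.7% in all, and the shares are not adjusted for it. CCAAT stood in 58.3% of the windows of replication genes, 91.3% of those of mitosis genes and 37.4% of all, and TTTGAA, the CHR word, in 12.5%, 73.9% and 17.9%. Of the called genes with a window, Pold1, Pola1, Lig1 and Pole2 held an E2F word. These genes were picked for holding the word, so their windows show no link between the word and the fall in KO cells. The windows are given 5′ to 3′ on the strand of the gene, with the E2F word in capitals:
Pold1: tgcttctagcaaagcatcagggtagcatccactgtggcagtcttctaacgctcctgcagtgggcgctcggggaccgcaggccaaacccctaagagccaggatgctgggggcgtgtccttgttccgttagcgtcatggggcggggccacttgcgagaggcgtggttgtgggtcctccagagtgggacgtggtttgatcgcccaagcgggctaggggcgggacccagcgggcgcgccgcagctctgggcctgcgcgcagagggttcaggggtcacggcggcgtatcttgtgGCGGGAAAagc
Pola1: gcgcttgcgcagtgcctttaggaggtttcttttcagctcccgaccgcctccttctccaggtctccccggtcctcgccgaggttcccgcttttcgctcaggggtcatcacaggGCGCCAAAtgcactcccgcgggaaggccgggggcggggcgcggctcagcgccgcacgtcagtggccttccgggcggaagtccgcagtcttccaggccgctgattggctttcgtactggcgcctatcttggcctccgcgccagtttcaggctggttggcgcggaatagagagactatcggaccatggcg
Lig1: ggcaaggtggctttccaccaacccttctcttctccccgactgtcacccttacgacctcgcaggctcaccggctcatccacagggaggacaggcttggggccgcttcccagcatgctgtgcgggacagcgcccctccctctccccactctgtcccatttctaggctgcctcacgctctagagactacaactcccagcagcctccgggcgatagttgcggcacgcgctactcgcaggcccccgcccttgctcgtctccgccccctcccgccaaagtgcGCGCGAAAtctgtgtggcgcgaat
Pole2: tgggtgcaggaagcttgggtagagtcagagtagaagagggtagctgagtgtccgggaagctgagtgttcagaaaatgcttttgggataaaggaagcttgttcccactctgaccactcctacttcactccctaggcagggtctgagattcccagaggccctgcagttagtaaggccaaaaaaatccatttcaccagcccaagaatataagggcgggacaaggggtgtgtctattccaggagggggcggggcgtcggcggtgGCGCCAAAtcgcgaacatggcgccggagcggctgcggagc
With the start counted as 0, the first base of the word lies at 39 in Pold1, at -138 in Pola1, at 26 in Lig1 and at 10 in Pole2. Lig1 has 3 windows, and the other 2 hold no E2F word. The windows are chr7:44548766-44549065 (minus strand) for Pold1, chrX:93632106-93632405 (minus strand) for Pola1, chr7:13278576-13278875 (plus strand) for Lig1 and chr12:69228141-69228440 (minus strand) for Pole2. The window of Cdc45, which had the lowest p, holds no E2F word, nor do those of Rfc4, Rrm2 and Tk1, and Pole has no window. Genes with such a word also include Mcm3 and Gins3, which were at 0.16 and 0.04 on the probe sets used. A match describes these letters and shows no binding.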

How the data were processed

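Per the submitters' processing notes, array intensities were summarised with RMA, which returns log2 values, and the series' design text names GeneSpring GX 11.5. The authors deposited log2 values of 45101 probe sets, in which the WT DMSO arrays of each probe set sum to 0 within 1e-06. No label records that centring. Differences between groups are unaffected by it. Of the probe sets, 34945 have 1 gene symbol and were used, 932 have several, 9211 have none and 64 are controls. One probe set per gene was taken by suffix and identifier, since no absolute level was left for the intended choice of the highest mean.

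A model of 4 group means was fitted to all 8 arrays with limma 3.58.1 in R 4.3.3 (4 residual and 5.8 prior degrees of freedom), with two-sided tests and Benjamini-Hochberg adjustment over 18193 genes in each comparison. Values of the other probe sets of a gene come from the same model fitted to all 34945 probe sets with 1 gene symbol, adjusted over these. The fit over genes and the reading of level ranges were tested on simulated data, where the level range was read right for 98.2% of probe sets. Precision is limited by the small number of arrays.

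The genes described and all gene lists were chosen with earlier results of these data known. Values by array are given for genes called in any comparison and for the gene of each role with the smallest p in DMSO. Of the further lists, 4 genes by smallest p and every called gene are named, except 1 called gene that is not reported here. The comparisons averaged over treatments or genotypes, and the probe set of highest level range, were added after the values were seen. Alternatives were the compared groups alone, array weights, quantile normalisation of the centred values, the replicate number as a block, the mean of a gene's probe sets, a lowest level of at least 4, and leaving out each array.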

Additional observations from a re-analysis of the deposited data

Results flagged for a closer look

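For 9 genes, both digoxin arrays lay above both DMSO arrays in KO cells and below them in WT cells. The difference between the digoxin effects, KO minus WT, was 0.32 for Pold1, the 1 gene among the 51 replication and S phase genes. It was 0.32 for Blm, 0.25 for Bub1b, 0.34 for Ccnb2, 0.37 for Cdc20, 0.23 for Cdk1, 0.66 for Dlgap5, 0.69 for Hmmr and 0.53 for Nek2. Only the 51 genes and those genes of the other lists that were called in some comparison were looked at for this. Over all measured genes the same pattern held for 365 of 18193 (2.01%). It held for 1 of the 51 (1.96%), 3 of 51 other replication genes (Blm, Tonsl and Wdhd1, 5.88%), 0 of 18 other G1 regulators and 7 of 24 mitosis genes (29.2%). These shares use every measured gene of a list, called or not. Of the 24 mitosis genes, 21 had been called lower in KO DMSO against WT DMSO, on arrays that the pattern also uses. The share of mitosis genes is therefore not separate from that fall. No difference between the digoxin effects was called by limma, and no explanation was tested.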

How the results depend on the processing

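For KO DMSO against WT DMSO, the 5 called genes (191 over all genes) became 1 (Cdc45; 95 over all genes) in a fit of the compared groups alone, 0 after quantile normalisation (3 over all genes), with 21 at an unadjusted p under 0.05, and from 0 to 0 without 1 array in turn, with 20 to 34 at an unadjusted p under 0.05 by limma. For KO digoxin against WT DMSO, the 2 called genes (287 over all genes) became 6 (374) with the compared groups alone, 0 (10) after quantile normalisation, with 16 at an unadjusted p under 0.05, and from 0 to 0 without 1 array in turn, with 14 to 25 at an unadjusted p under 0.05. With both treatments averaged, the 9 called genes (275 over all genes) became 0 (3) after quantile normalisation, with 32 at an unadjusted p under 0.05, 15 (376) with the mean of a gene's probe sets, and from 1 to 15 without 1 array in turn. Without 1 array in turn, the median ran from -0.36 to -0.17 for KO against WT under digoxin, from -0.162 to 0.0539 for digoxin in WT cells, from -0.46 to -0.21 for KO DMSO against WT digoxin, and from 0.0153 to 0.252 for the difference of the digoxin effects. The cause was not tested. The SD over all genes was 0.09 on the WT DMSO arrays and 0.17 to 0.28 on the others. Quantile normalisation of these centred values gave all arrays the same distribution. Calls lost under it are therefore no clean test of these genes. In the comparisons with called genes, fewer of all genes were also called without any 1 of the arrays compared. A group left with 1 array is assumed to vary like the others. The replicate numbers were not taken to pair the arrays, since no label says so and deviations of same-numbered arrays correlated from 0.325 to 0.454 among KO digoxin, KO DMSO and WT digoxin but from -0.242 to -0.136 between each of these and WT DMSO. With the replicate block, 4 genes were called in KO DMSO against WT DMSO (Pole had an adjusted p of 0.0546), 3 in KO digoxin against WT DMSO and 11 with both treatments averaged. No called gene changed sign under any alternative. With 2 arrays a group, a median standard error of 0.13 limits what a single comparison can show.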
